A study of Mus musculus with 18 samples.

Results

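The response of resting follicular B cells to crosslinking of their antigen receptor in vivo was read from 8 arrays of vehicle-treated mice, 4 given an antibody against IgD and 4 given PBS, out of 18 arrays in the series. These 8 were chosen by their labels alone, and all 11104 named genes that passed a filter on low signal were compared. The other 10 arrays came from mice given PF-303, an inhibitor of the kinase BTK. They entered the estimate of the spread between arrays, the filter on low signal and the choice of probe set for each gene. In a fit of only the 8 vehicle arrays 10076 genes were tested. All mice were of the strain C57BL/6J, and the RNA was that of CD23+ B lymphocytes from the spleen. Mice of both groups were injected with vehicle, and 2 h later with anti-IgD or PBS, and the cells were taken 2 h after that second injection. Age, sex, the dose and clone of the antibody, and whether each sample came from its own mouse are not given in the sources used here. The p-values therefore rest on how far these samples lay apart, and some of that spread may be technical.

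IgD is carried with IgM on naive follicular B cells, and CD23, the low-affinity receptor for IgE, marks the same cells. Crosslinking of the receptor activates SRC-family kinases, SYK and BTK, and through phospholipase C raises calcium and diacylglycerol, which lead to NFAT, RAS and MAP kinases and NF-kB. A stimulated B cell leaves quiescence within hours: it takes up nutrients, enlarges its machinery for making protein, and alters the receptors with which it meets other cells, before any division takes place. The genes described here are those beyond the immediate early genes and the factors that assemble ribosomes. Of 41 immediate early genes tested 26 were called higher, and of 78 genes of ribosome biogenesis 72 were called higher, and neither list is taken further. Their genes stay in the counts of any other list that holds them.

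Values are MAS5 signals, an array brightness per probe set that the authors scaled to one common level on every array. Fold changes are given as the difference of log2(signal + 16) between anti-IgD and PBS ± its standard error (SE) from limma, and a gene was said to rise or fall at an adjusted p under 0.05. Of the 11104 genes, 1928 rose (17.4%) and 3394 fell (30.6%), and at least 2-fold changes numbered 393 upward (3.54%) and 402 downward (3.62%). The median of all genes was -0.13, and it was -0.07 after the arrays were shifted to one median and -0.08 after quantile normalization, so that a list near this value did not stand apart from the array as a whole. Lists with shares near 17.4% higher and 30.6% lower did not stand apart by count either. Such were RAB GTPases (14.3% and 36.7%), G proteins and their regulators (13.5% and 37.8%), mRNA decay (20.5% and 30.8%) and nutrient sensing (19.4% and 36.1%). So were DNA replication (12.8% and 33.3%), oxidative stress (17.4% and 34.8%) and cytokine receptors (23.1% and 38.5%). Glycan transferases (13.5% and 38.5%) and mitochondrial carriers (16.2% and 37.8%) were near these shares too. After the shift to one median, 2059 genes rose and 2770 fell. The SD of log2 differences between arrays of different groups (0.566 to 0.684 over 16 pairs) exceeded that between arrays of one group (0.244 to 0.415 over 12 pairs). Spike-in controls were bright, at 2.21 and 3.70 times their median over all arrays, in replicates 3 and 4 of the PBS group and lay between 0.554 and 1.08 times that median in the anti-IgD group. With the 6 bright-spike arrays of the series left out, these 2 among them, 1844 genes rose and 3269 fell. The array descriptions also hold a code whose meaning is not given, and with its row letter as a block, named the code row from here on, 1448 genes rose and 2374 fell. Because RNA was taken from a bulk of CD23+ cells, fewer cells that express a gene and less of its RNA per cell cannot be told apart.

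**Figure D1:**
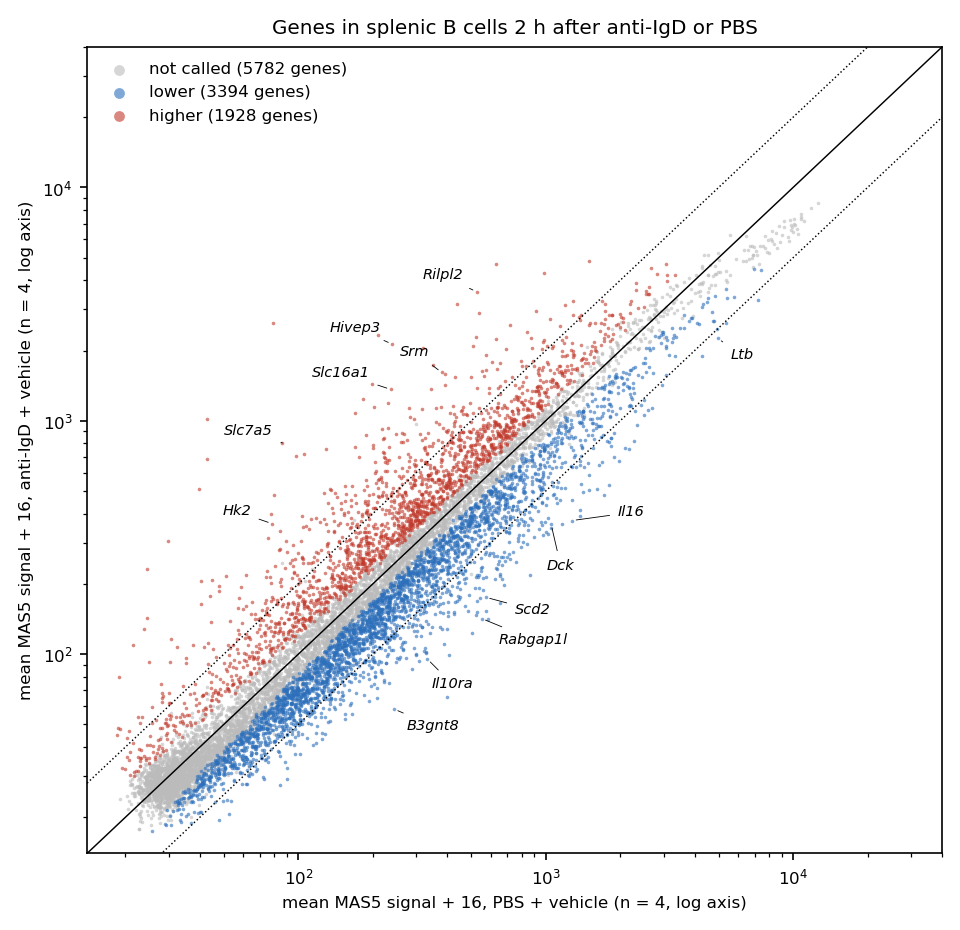
Mean MAS5 signal plus 16 of each of 11104 genes with PBS (horizontal, log axis) and anti-IgD (vertical, log axis) in vehicle-treated mice, n = 4 arrays each. Red points rose and blue points fell at a limma adjusted p under 0.05, the solid line marks equal signal and dotted lines mark 2-fold differences; 1928 points are red and 3394 blue.

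Among genes whose groups did not overlap, and outside the immediate early and ribosome biogenesis lists, the largest rise was that of Slc7a5, the light chain of the L-type amino acid transporter. Its signals were 71.5, 59.4, 50.9 and 99.2 with PBS and 880, 648, 740 and 883 with anti-IgD, a log2 fold change of 3.24 ± 0.28. Hivep3, a large zinc finger DNA-binding protein, stood at 250, 247, 259 and 138 with PBS and at 2113, 1844, 2195 and 2312 with anti-IgD (3.19 ± 0.14). In both genes every anti-IgD array lay above every PBS array, which was a condition for the choice of genes here. Next came Marcksl1, an actin-regulating MARCKS protein (2.93 ± 0.24), Irs2, an adaptor of the insulin and IL-4 receptors (2.88 ± 0.13), and Ahr, the aryl hydrocarbon receptor (2.85 ± 0.10). Ahr was even between replicates, at 167 to 193 with PBS and 1329 to 1513 with anti-IgD. The lysosome-related Mreg (2.80 ± 0.23), the heterochromatin protein gene Bend3 (2.79 ± 0.10), Rilpl2 (2.78 ± 0.13), the histone H3 lysine demethylase Kdm6b (2.73 ± 0.15), Litaf (2.72 ± 0.15) and Fam167a (2.54 ± 0.11) followed. Each of these 6 had no overlap between the 4 arrays of either group, again by the way the genes were chosen.

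Among the largest falls were B3gnt8, which extends sugar chains on glycoproteins, and Rabgap1l, which switches off RAB GTPases. B3gnt8 had signals of 255, 200, 272 and 184 with PBS and 34.1, 58.0, 35.1 and 41.6 with anti-IgD, and it fell by 2.07 ± 0.15. Rabgap1l went from 433 to 617 down to 110 to 150 (-1.95 ± 0.10). Il10ra, the ligand-binding chain of the interleukin-10 receptor, had 301, 302, 334 and 328 with PBS and 87.6, 79.6, 86.6 and 63.5 with anti-IgD (-1.81 ± 0.10). These values are of the brightest probe set of each gene. With the mean of all probe sets Rabgap1l was -1.11 and Il10ra -1.09. The transcriptional cofactor Irf2bpl (-1.81 ± 0.14), Tmem71 (-1.80 ± 0.09), the channel family member Calhm2 (-1.80 ± 0.08) and Pde4b, a cAMP phosphodiesterase (-1.79 ± 0.17), fell by similar amounts.

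Genes for the uptake and making of amino acids were prominent among the rises. Of 18 amino acid transporter genes tested, 7 rose and 2 fell, with a median of 0.09. Slc7a1, which carries arginine and lysine, had signals of 445, 475, 379 and 363 with PBS and 1582, 1325, 1517 and 1676 with anti-IgD (1.84 ± 0.09; limma adjusted p = 7.8e-13). Slc7a6 rose by 1.34 ± 0.13 and Slc3a2, the heavy chain that brings Slc7a5 to the surface, by 0.87 ± 0.08. Slc43a2, another carrier of large neutral amino acids, fell (-1.22 ± 0.13), and so did Slc38a9, the lysosomal arginine sensor of mTORC1 (-0.71 ± 0.11).

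Serine, glycine and one-carbon metabolism supplies the carbon units for purines and thymidylate, and 9 of its 13 genes tested rose and 2 fell (median 0.49). Shmt1, the cytosolic enzyme that moves a carbon from serine to folate, had 66.9, 71.8, 44.0 and 70.8 with PBS and 437, 421, 498 and 503 with anti-IgD (2.61 ± 0.12). The mitochondrial enzyme Mthfd2 rose by 1.5 ± 0.11, the glycine cleavage protein Gcsh by 1.42 ± 0.12 and Psat1, the aminotransferase of serine synthesis, by 1.11 ± 0.11. The other steps of serine synthesis differed: Phgdh, the first, had a value of -0.07 ± 0.09 and did not pass the test, and Psph, the last, fell by 0.70 ± 0.10.

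Purine synthesis rose along most of its length, with 11 of 14 genes higher and 2 lower and a median of 0.566. Ppat, which commits ribose phosphate to purines, had 215, 177, 204 and 253 with PBS and 617, 601, 623 and 534 with anti-IgD (1.42 ± 0.09). Prps1, which makes the activated ribose, rose by 0.81 ± 0.10, Pfas by 0.78 ± 0.10 and the salvage enzyme Aprt by 0.96 ± 0.13. Pyrimidine genes were split, with 5 of 16 higher and 6 lower (median -0.10). Of the enzymes that make or salvage UMP and CTP, Uck2 rose by 1.61 ± 0.13, Ctps by 1.55 ± 0.11, Umps by 0.97 ± 0.11 and Cad, the first enzymes of the pathway, by 0.47 ± 0.12, and the second CTP synthase, Ctps2, fell by 0.59 ± 0.09. Ctps stood at 152, 191, 211 and 201 with PBS and at 555, 509, 625 and 634 with anti-IgD. The largest falls on this list, by which the genes were picked, were in genes of deoxynucleotide supply. Dck went from 1125, 1093, 958 and 964 to 350, 408, 318 and 305 (-1.55 ± 0.09), Tk1 had -0.73 ± 0.14 and the ribonucleotide reductase subunit Rrm2b -0.665 ± 0.08. Dctd, a deaminase of deoxycytidylate, went the other way and rose by 0.70 ± 0.14.

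Polyamines are small cations needed for translation, and 5 of 10 genes of their synthesis rose and 1 fell (median 0.31). Odc1, the first enzyme, went from 440 to 787 with PBS to 1177 to 1956 with anti-IgD (1.40 ± 0.21). Srm, which makes spermidine, rose by 2.09 ± 0.10.

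Sugar metabolism rose at a few steps and not as a whole. Of 22 glycolysis genes 7 rose and 3 fell, with a median of 0.08. Slc16a1, the monocarboxylate carrier that exports lactate, had 231, 215, 241 and 196 with PBS and 1301, 1205, 1568 and 1313 with anti-IgD (2.52 ± 0.11). Hk2, the inducible hexokinase, rose by 2.21 ± 0.10, whereas its relative Hk1 fell by 0.47 ± 0.11. Pgam1 rose by 1.14 ± 0.07, Ldha, which reduces pyruvate to lactate, by 1.03 ± 0.09 and the phosphofructokinase Pfkp by 0.85 ± 0.09. The glucose carrier Slc2a1 had a value of 0.08 ± 0.09 and did not pass the test. In the citrate cycle 3 of 20 genes rose and 8 fell, and the median of -0.05 turned to 0.01 after the shift to one median. The NADP-dependent isocitrate dehydrogenases Idh1 (-1.20 ± 0.18) and Idh2 (-0.80 ± 0.11) fell and the NAD-dependent subunit Idh3a rose (0.66 ± 0.07). With the code row as a block 3 citrate cycle genes fell.

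Genes of fatty acid oxidation fell more often than they rose, and those of fatty acid and sterol synthesis went both ways. Of 18 genes of fatty acid oxidation 12 fell and 1 rose (median -0.46), and 7 fell with the code row as a block. Cpt1a, the gate for fatty acids into mitochondria, had 528, 391, 644 and 604 with PBS and 213, 193, 171 and 207 with anti-IgD (-1.38 ± 0.13). Hadh fell by 1.40 ± 0.13, Eci2 by 0.96 ± 0.09 and Acaa2 by 0.90 ± 0.11. In fatty acid synthesis 6 of 15 rose and 4 fell (median 0.16), and without the bright-spike arrays 3 rose. Fasn, fatty acid synthase, went from 205, 193, 223 and 214 to 560, 542, 612 and 650 (1.43 ± 0.09), and the desaturase Scd2 went the other way, from 609, 590, 462 and 564 to 166, 161, 191 and 120 (-1.72 ± 0.11). Sterol genes were divided too, with 11 of 25 higher and 9 lower, and their median of -0.01 changed sign to 0.05 after the shift to one median. Cyp51 (1.41 ± 0.15), Insig1 (1.37 ± 0.14), Idi1 (1.32 ± 0.18) and Sqle (1.23 ± 0.22) rose, and Dhcr7 (-0.89 ± 0.15) and the cholesterol exporter of lysosomes Npc1 (-0.91 ± 0.12) fell.

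Of 19 genes of iron uptake, storage and haem synthesis 2 rose and 6 fell (median -0.28). The 2 that rose bring metal in: Tfrc, the transferrin receptor, from 301 to 442 with PBS to 1387 to 1474 with anti-IgD (1.89 ± 0.10), and the metal carrier Slc39a14 (0.85 ± 0.17).

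**Figure D2:**
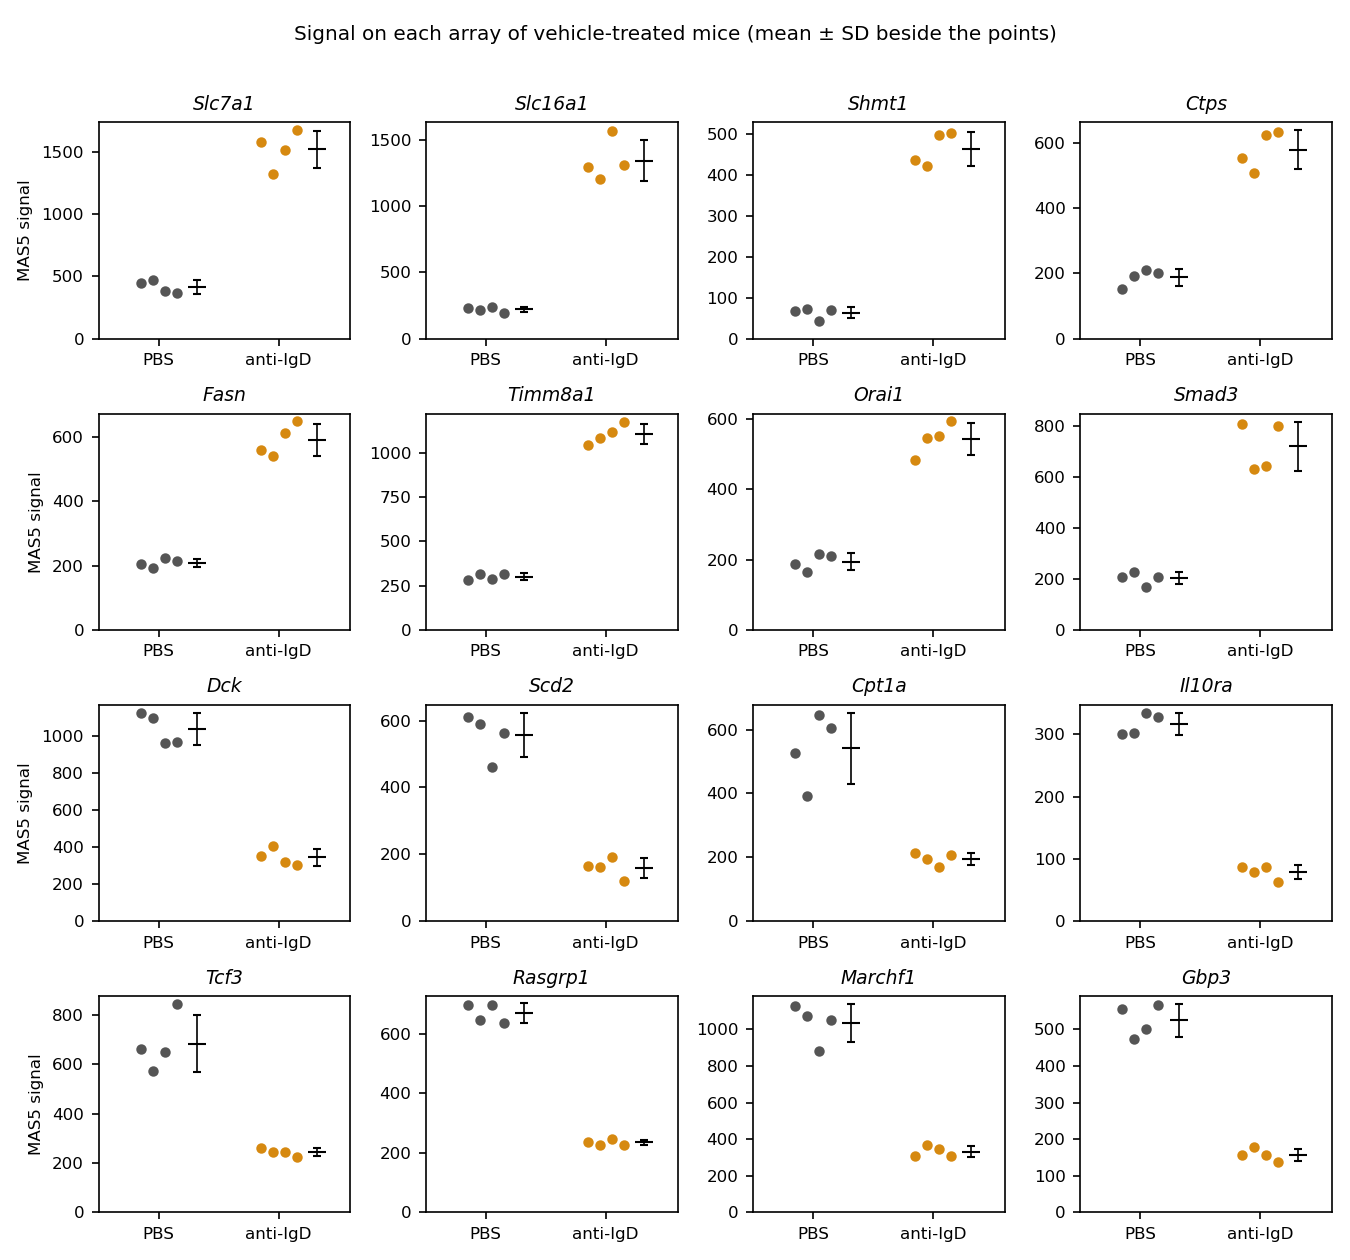
MAS5 signal (vertical, linear axis from 0) of 16 genes on each of the 4 PBS arrays (grey) and 4 anti-IgD arrays (orange) of vehicle-treated mice, with the mean and SD beside the points. In each of the 16 panels the groups do not overlap; Slc16a1 lies between 196 and 241 with PBS and between 1205 and 1568 with anti-IgD, and Dck between 958 and 1125 with PBS and between 305 and 408 with anti-IgD.

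Promoter sequences of the genes were searched for the letters bound by growth and stress factors. RefSeq windows from 250 bases before to 50 after a start site (GRCm38.p6) were matched for 9017 of the 11104 genes, giving 11533 windows. Of 8 motifs searched, the E-box CACGTG, the same on both strands and known as a site of MYC, MAX and clock factors, was in 22.98% of 396 windows of genes that rose at least 2-fold and in 6.24% of 481 windows of genes that fell at least 2-fold. It was in 10.05% of windows of all genes tested. It was in 15.98% of windows of genes that rose less than 2-fold, 7.91% of those that fell less than 2-fold and 9.09% of those not called. Leaving out the immediate early and ribosome biogenesis genes left the share at 23.01% (75 of 326 windows). The share thus ordered with the direction and size of the change, without a test. The windows were not matched for base composition, with a mean GC content of 60.9% in the genes that rose at least 2-fold and 58.9% in those that fell at least 2-fold, and 22.2 and 16.4 CpG per window. The cAMP response element TGACGTCA was in 4.55% and 0.416% of the same 2 sets of windows (3.01% of all tested) and the ETS letters CCGGAAGT in 8.33% and 2.70% (8.35% of all tested). The forkhead letters GTAAACA were in 3.03% and 4.16% (2.77% of all tested), the EGR letters GCGTGGGCG in 2.27% and 0.208% (1.21%) and the AP-1 letters TGANTCA in 4.29% and 5.61% (5.07%). The remaining letters searched were CCAAT, in 33.8% and 35.3% (37.2%), and the sterol element TCACNCCAC, in 0.758% and 1.46% (1.09%). Both strands were searched, none of these motifs holds another, and a match describes letters and not binding.

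The windows of 4 genes show where the E-box lies in a lactate enzyme, a lactate carrier, a mitochondrial import factor and a tRNA synthetase that rose. Each is printed in the direction of the gene from 250 bases before to 10 after the start, 260 bases, with the E-box in capitals. Ldha lies at chr7:46845554-46845813 on the plus strand with E-boxes starting at -145 and -48, and Slc16a1 at chr3:104638414-104638673 on the plus strand with 1 at -200. Timm9 lies at chr12:71136666-71136925 on the minus strand with E-boxes at -58 and -1, and Iars at chr13:49681880-49682139 on the plus strand with 1 at -69.
Ldha: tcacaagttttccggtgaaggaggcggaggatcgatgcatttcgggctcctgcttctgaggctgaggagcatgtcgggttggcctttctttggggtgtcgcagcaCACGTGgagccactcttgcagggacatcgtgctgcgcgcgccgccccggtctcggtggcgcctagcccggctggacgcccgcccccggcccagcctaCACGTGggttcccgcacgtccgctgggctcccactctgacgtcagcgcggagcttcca
Slc16a1: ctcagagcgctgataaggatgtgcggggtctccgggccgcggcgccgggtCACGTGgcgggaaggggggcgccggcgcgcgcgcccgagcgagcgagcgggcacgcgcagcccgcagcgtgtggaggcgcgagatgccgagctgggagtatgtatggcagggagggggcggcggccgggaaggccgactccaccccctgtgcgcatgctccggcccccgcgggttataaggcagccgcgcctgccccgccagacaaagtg
Timm9: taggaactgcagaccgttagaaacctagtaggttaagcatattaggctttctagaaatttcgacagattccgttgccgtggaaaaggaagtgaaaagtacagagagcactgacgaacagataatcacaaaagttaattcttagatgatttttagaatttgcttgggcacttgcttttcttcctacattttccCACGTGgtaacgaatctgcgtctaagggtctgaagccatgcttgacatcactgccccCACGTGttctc
Iars: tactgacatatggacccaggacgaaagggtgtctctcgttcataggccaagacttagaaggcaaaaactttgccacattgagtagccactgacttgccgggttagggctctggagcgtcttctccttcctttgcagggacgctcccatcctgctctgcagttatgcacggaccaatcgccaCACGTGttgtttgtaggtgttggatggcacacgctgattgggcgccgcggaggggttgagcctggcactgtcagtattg

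Among lists of protein synthesis, rises were most frequent for cytosolic tRNA synthetases (81%) and enzymes that modify tRNA and rRNA (66.7%). Elongation and release factors followed (53.3%), and differences between these lists were not tested. Of 21 cytosolic tRNA synthetase genes 17 rose and 2 fell, and the median of 0.572 lay beside that of purine synthesis at the top of the 77 lists plotted. After quantile normalization it was 0.547, and that of the ATF4 list was the highest, at 0.591. Iars, the isoleucine enzyme, had 518, 491, 412 and 350 with PBS and 1053, 1003, 1069 and 1256 with anti-IgD (1.29 ± 0.12). Tars (1.25 ± 0.09), Rars (1.21 ± 0.07) and the scaffold protein of the synthetase complex Aimp2 (1.19 ± 0.10) rose by like amounts, and Vars, the valine enzyme, fell (-0.73 ± 0.11). The mitochondrial synthetases did not follow, with 2 of 16 higher and 6 lower (median -0.17): Yars2 rose by 0.70 ± 0.09 and Cars2 fell by 0.79 ± 0.12. With the code row as a block 2 of them fell.

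Of 33 enzymes that modify tRNA and rRNA 22 rose and 2 fell (median 0.47). Pus7, a pseudouridine synthase, went from 190, 172, 207 and 171 to 734, 684, 873 and 807 (1.98 ± 0.11). The 2 subunits of the tRNA 7-methylguanosine methyltransferase rose alike, Mettl1 by 1.41 ± 0.14 and Wdr4 by 1.30 ± 0.10, and Trmt61a, of the 1-methyladenosine enzyme, rose by 1.59 ± 0.11. Among 45 initiation factor genes 19 rose and 5 fell (median 0.14), led by Eif1a (1.37 ± 0.09), Eif2b3 (1.11 ± 0.11), the cap-binding protein gene Eif4e (1.09 ± 0.08) and Eif1ad (1.04 ± 0.08). Eif4e stood at 451 to 530 with PBS and 997 to 1142 with anti-IgD. Among 15 genes on the list of elongation and release factors 8 rose and 2 fell (median 0.47, and 0.572 after quantile normalization). Etf1, which reads stop codons, was at 1.10 ± 0.07. Eef1e1, on the list though not itself an elongation factor, was at 1.22 ± 0.09.

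The cytosolic ribosomal proteins themselves did not share this direction. Of 45 genes 4 rose and 1 fell, and the median of -0.39 became 0.01 after quantile normalization, so that its sign depended on the scaling of the arrays. Rpl12 (1.18 ± 0.13) and Rps25 (0.74 ± 0.08) were among the 4 that rose.

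Mitochondrial genes rose for import and not for the respiratory chain. Of 31 genes of mitochondrial protein import 18 rose and 1 fell (median 0.33). Timm8a1, a chaperone of the space between the membranes, had 284, 315, 288 and 316 with PBS and 1043, 1085, 1116 and 1176 with anti-IgD (1.82 ± 0.08). Its relatives Timm9 (1.62 ± 0.15) and Timm10 (1.47 ± 0.13) and the matrix chaperone Hspa9 (1.16 ± 0.07) rose, as did Hspd1, the matrix chaperonin (0.92 ± 0.08). Of 76 mitochondrial ribosomal protein genes 28 rose and 10 fell (median 0.10), with Mrps6 at 1.19 ± 0.10, Mrpl17 at 0.86 ± 0.15, Mrpl12 at 0.85 ± 0.12, Mrps18b at 0.84 ± 0.12 and, in the other direction, Mrps16 at -0.89 ± 0.10. In complex I 6 of 34 genes rose and 6 fell (median -0.07), with 11 falls after quantile normalization and 3 of each with the code row as a block, in complexes II to IV 5 of 24 rose and 2 fell (median 0.05), and of 15 ATP synthase genes 1 rose, Atp5g1 (0.56 ± 0.07). The ATP synthase median of 0.02 turned to -0.03 after quantile normalization. Cycs, cytochrome c, rose by 0.71 ± 0.11. Of 37 mitochondrial carriers 6 rose (16.2%) and 14 fell (37.8%), near the shares of all genes, with a median of -0.22. Slc25a33, a pyrimidine nucleotide carrier, had the largest rise among them (1.76 ± 0.14).

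Chaperones of the cytosol rose by modest amounts. Of 27 heat shock protein genes 17 rose and 1 fell (median 0.38; 11 rose with the code row as a block), with Dnajc21 at 1.15 ± 0.17, Hsph1 at 0.92 ± 0.14 and the ribosome-bound Dnajc2 at 0.69 ± 0.09. Of 15 chaperonin and prefoldin genes 9 rose and 2 fell (median 0.36), with Pfdn2 at 0.84 ± 0.10 and Cct3 at 0.78 ± 0.11. In the endoplasmic reticulum 16 of 37 rose and 6 fell (median 0.22). Hspa5, its main chaperone, stood at 2724, 3031, 2862 and 3580 with PBS and at 4824, 4780, 4114 and 5070 with anti-IgD (0.62 ± 0.12), Ero1a rose by 0.89 ± 0.10 and Dnajb9 by 0.82 ± 0.12, and the disulphide isomerase Pdia4 fell by 0.98 ± 0.13.

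Targets of ATF4, the transcription factor of amino acid shortage and stress, rose in 9 of 17 cases and fell in 1 (median 0.54). Ddit3 went from 148, 119, 115 and 127 to 455, 432, 443 and 490 (1.72 ± 0.09), and Ppp1r15a, which ends the stress arrest of translation, rose by 1.19 ± 0.12. Atf4 itself rose by 0.80 ± 0.08. The one that fell was Ddit4, an inhibitor of mTORC1 (-1.03 ± 0.18). Mthfd2 and Psat1 stand on this list as well as on the one-carbon list.

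The proteasome genes moved in 2 directions by kind of subunit. Of 45 genes 18 rose and 4 fell (median 0.18). The nuclear activator Psme3 (1.25 ± 0.08), the assembly factor Psmg2 (0.87 ± 0.16) and Psmd7, of the regulatory particle (0.65 ± 0.11), rose. The 3 catalytic subunits of the immunoproteasome, which trims peptides for MHC class I, fell: Psmb9 from 1187, 1342, 1405 and 1170 to 704, 764, 692 and 762 (-0.79 ± 0.09), Psmb10 by 0.71 ± 0.10 and Psmb8 by 0.63 ± 0.09.

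In the nucleus, genes of nuclear transport, RNA polymerases and splicing that passed the test were mostly higher. Of 27 nucleoporin genes 13 rose and 2 fell (median 0.24), with Nup133 at 1.14 ± 0.13. Of 27 karyopherin and RAN genes 13 rose and 2 fell (median 0.23): the importins Ipo4 (1.26 ± 0.09) and Ipo5 (1.004 ± 0.11) and Ranbp1 (0.97 ± 0.08) rose, and Xpo1, the main exportin, fell from 848 to 922 with PBS to 545 to 594 with anti-IgD (-0.62 ± 0.07). Of 27 RNA polymerase subunit genes 15 rose and 6 fell (median 0.25), with Cd3eap, of polymerase I, at 1.39 ± 0.13 and Polr2h, shared by all 3 enzymes, at 1.18 ± 0.08. The largest rise on this list (1.95) was of a subunit that is also on the ribosome biogenesis list and was not taken out of the counts. Of 41 splicing factors of the SR and hnRNP families 21 rose and 3 fell (median 0.25), with Srsf2 at 0.95 ± 0.12 and U2af1 at 0.82 ± 0.11.

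Numbered zinc finger protein genes, a large family mostly of repressors with KRAB domains, fell in 92 of 249 cases and rose in 24 (median -0.24). The falls made up 36.9% of those tested, beside 30.6% of all genes, and of 305 such genes on the array 56 did not pass the signal filter. Zfp593 was the largest rise (1.82 ± 0.16) and Zfp90 the largest fall (-1.17 ± 0.12). Of 35 histone deacetylase and acetyltransferase genes 18 fell and 3 rose (median -0.30). The class II deacetylases Hdac7 (-1.31 ± 0.19) and Hdac5 (-0.98 ± 0.12) and the acetyltransferase Kat2b (-0.90 ± 0.11) fell, while the class I deacetylases Hdac1 (0.47 ± 0.10) and Hdac2 (0.38 ± 0.08) rose, Hdac2 without passing the test when the code row was a block. Of 54 histone methyltransferases and demethylases 11 rose and 23 fell (median -0.15), with Kdm2b at 1.45 ± 0.20, Prmt6 at 1.16 ± 0.14 and Smyd4 at -0.82 ± 0.12 beside the large rise of Kdm6b.

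Clock genes mostly rose. Of 16 tested 10 rose and 2 fell (median 0.39). Bhlhe40, a repressor of clock and immune genes, had 198, 177, 211 and 160 with PBS and 1080, 946, 1197 and 1283 with anti-IgD (2.49 ± 0.10). Ciart, a clock repressor with low signals of 4.27 to 49.1 with PBS, stood at 161 to 228 with anti-IgD (2.48 ± 0.25). Its size depended on the offset and lay between 1.54 and 3.35 over the alternatives. Per1 rose by 1.92 ± 0.15 and Per2 by 1.47 ± 0.13.

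**Figure D3:**
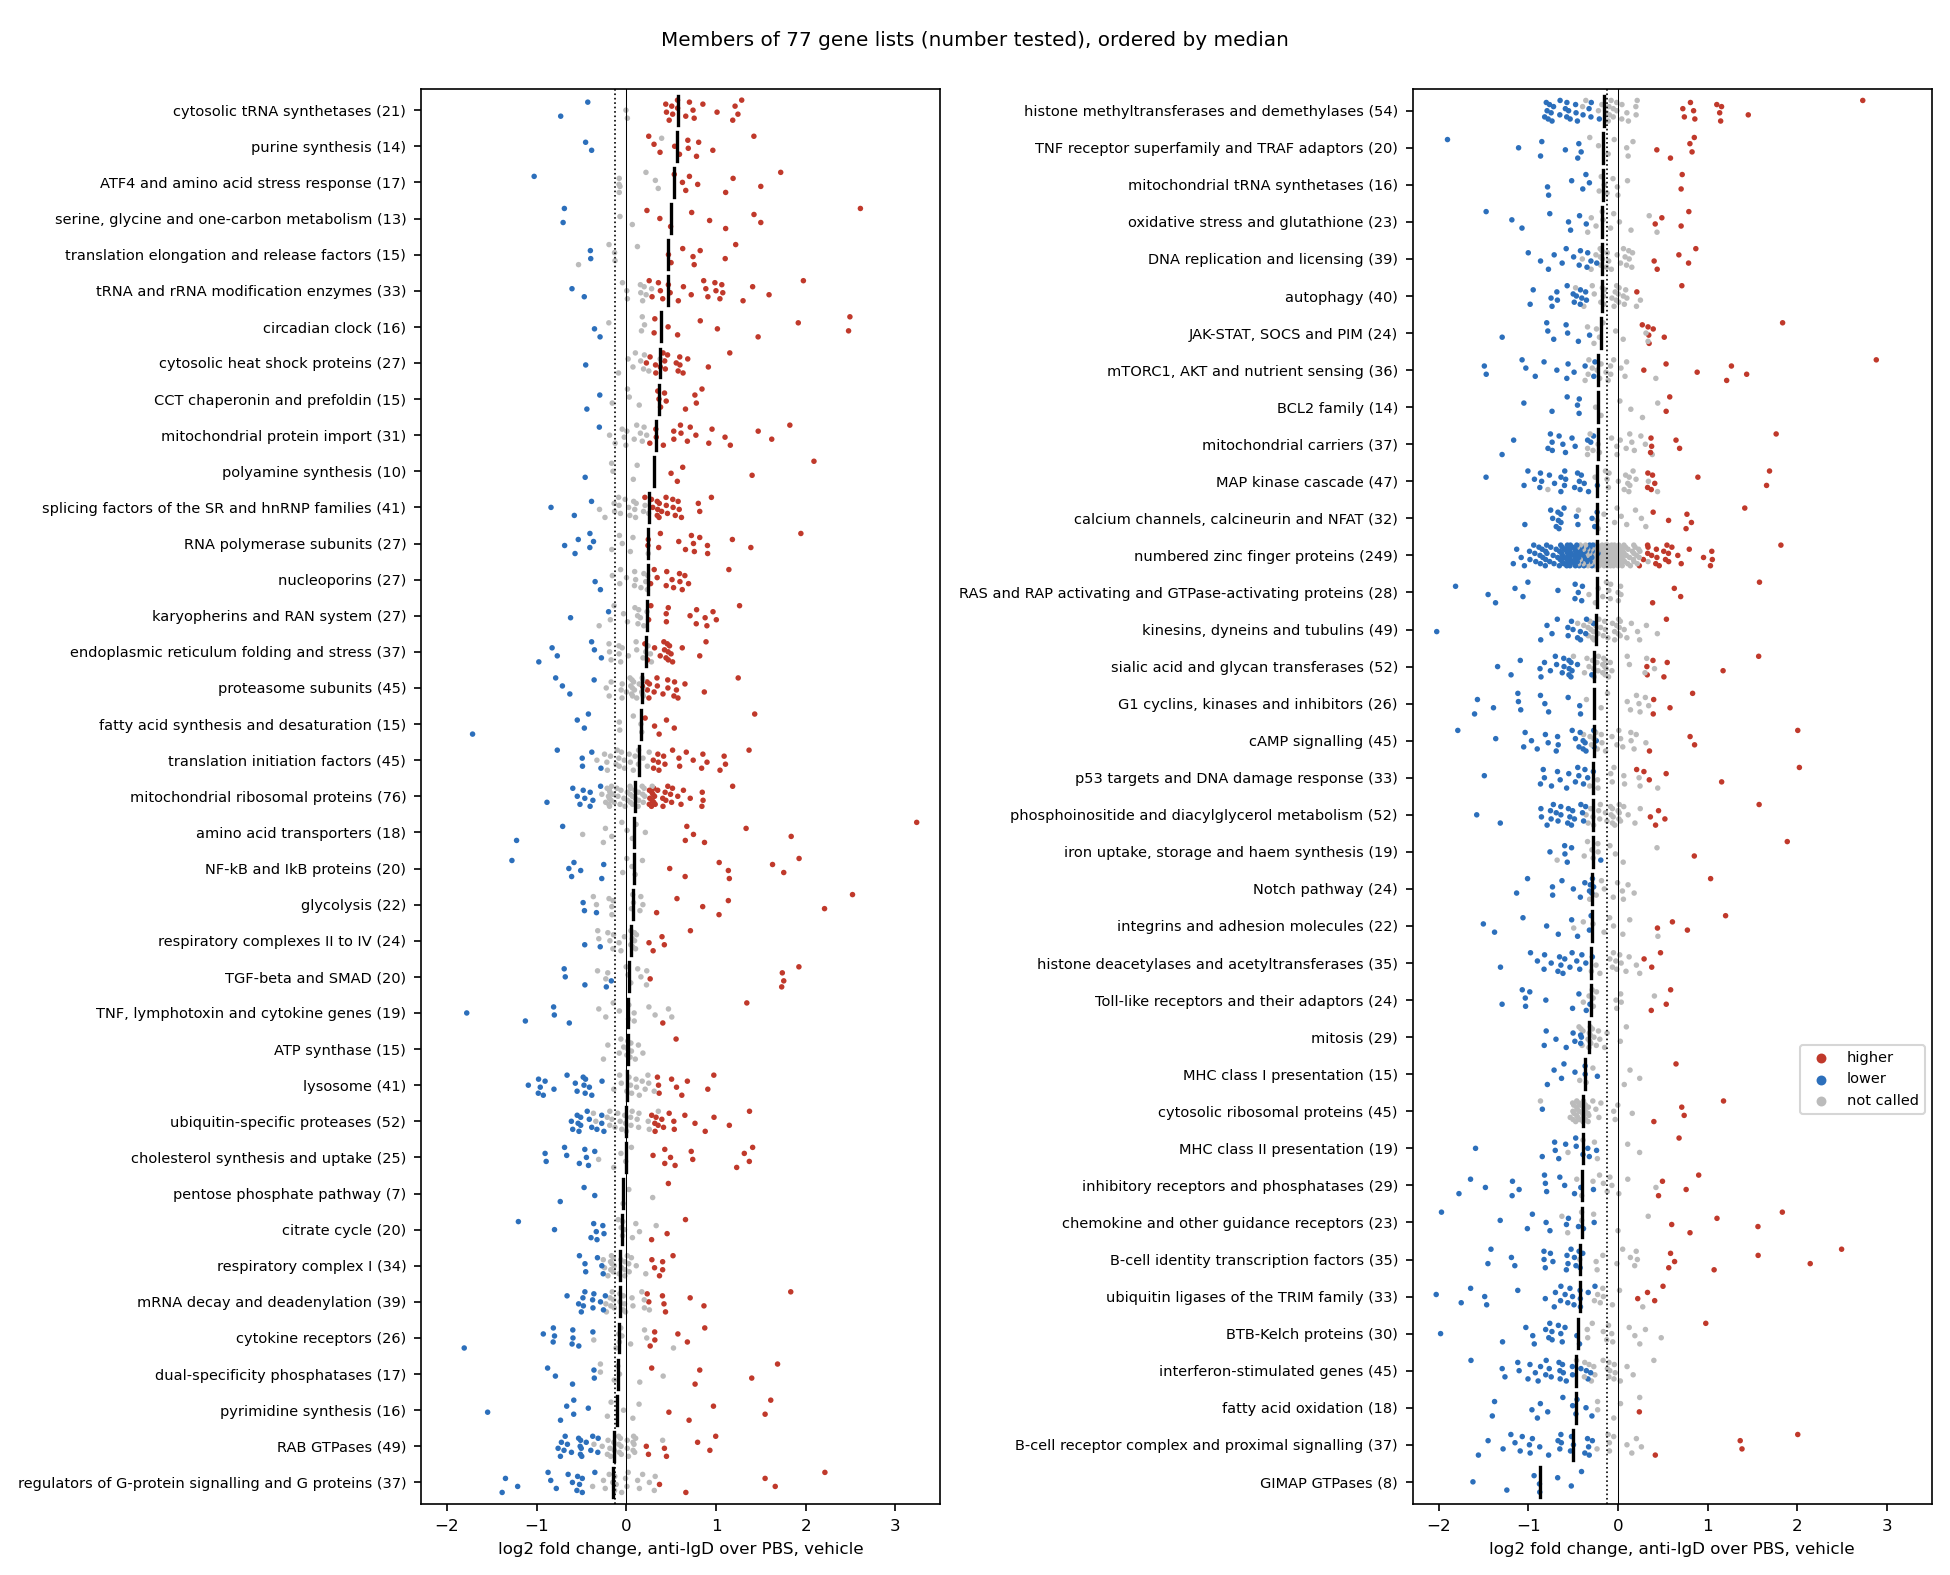
Log2 fold change (horizontal) of each tested member of 77 gene lists, ordered by the list's median (black bar) with the number tested in brackets. Red points rose, blue points fell and grey points did not pass the limma test; the dotted line is the median of all genes, -0.13. Cytosolic tRNA synthetases have a median of 0.572, the highest here but not after quantile normalization, and GIMAP GTPases have the lowest, -0.88; 6 lists, named with the other effects of processing, have medians that change sign with the scaling.

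The 3 cell cycle lists held more falls than rises, as did all genes tested. Of 29 mitosis genes 0 rose and 9 fell (median -0.32; limma, and 0 rose at an unadjusted p under 0.05), among them Ncapd2 (-0.82 ± 0.11) and Ndc80 (-0.80 ± 0.20). The mitosis falls were 31% of those tested, beside 30.6% of all genes, and the rises 0%, beside 17.4%. Without replicate 4 of the anti-IgD group 5 mitosis genes fell. Of 39 replication genes 5 rose and 13 fell (median -0.18): Pcna, the sliding clamp, rose from 1523 to 1901 with PBS to 2979 to 3322 with anti-IgD (0.87 ± 0.09) and the kinase activator Dbf4 by 0.79 ± 0.08, and the polymerase subunit Pold1 fell by 1.001 ± 0.13. Among 26 genes of G1 control 4 rose and 12 fell (median -0.27). Brakes of the cycle fell: Cdkn1b, which encodes p27, from 1052, 1010, 854 and 1041 to 326, 371, 277 and 292 (-1.60 ± 0.09), Rbl2 by 1.39 ± 0.14 and Rbl1 by 1.12 ± 0.08. E2f2 fell by 1.57 ± 0.15. Cdk4 rose by 0.83 ± 0.10 and Cdk6 by 0.58 ± 0.10, and Ccnd3 fell by 0.77 ± 0.15. Ccnd2 had a value of 0.23 ± 0.13 and Cdkn1a one of 0.25 ± 0.15, and neither passed the test; Ccnd2 lay between 0.16 and 0.37 over the alternatives and passed under 6 of them, among them without replicate 3 of the PBS group (0.36, adjusted p = 0.014). Among 33 p53 targets and genes of the damage response 6 rose and 16 fell (median -0.28), with Plk3 at 2.02 ± 0.16.

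Receptors that place B cells in tissue changed in both directions. Of 23 guidance receptor genes 5 rose and 11 fell (median -0.41). Gpr183, which draws B cells to the outer follicle, stood at 606, 545, 620 and 687 with PBS and at 2169, 2433, 1940 and 2387 with anti-IgD (1.83 ± 0.09). Ccr7, which draws them to the T-cell zone, rose by 0.60 ± 0.12 and Ccr9, a gut-homing receptor with a mean PBS signal under the filter, was called higher, with 12.2 to 16.1 with PBS and 43.9 to 107 with anti-IgD. Lpar6 fell by 1.31 ± 0.08. The sphingosine-1-phosphate receptors parted: S1pr3 rose from 592 to 652 with PBS to 1212 to 1568 with anti-IgD (1.10 ± 0.12), and S1pr4 (-1.97 ± 0.10) and S1pr1 (-1.01 ± 0.12) fell. Cxcr5, the follicle homing receptor, had a value of -0.27 ± 0.09 (limma adjusted p = 0.019), a call lost with the code row as a block, without the bright-spike arrays, after the shift to one median, and without replicate 1 of the anti-IgD group (-0.23, adjusted p = 0.064) or replicate 3 of the PBS group (-0.19, adjusted p = 0.088). Cxcr4 had -0.56 ± 0.23 and did not pass (adjusted p = 0.053), and its size moved with single arrays: it was -0.76 (adjusted p = 0.01) without replicate 1 of the PBS group, -0.64 (adjusted p = 0.043) without replicate 3 and -0.31 (adjusted p = 0.25) without replicate 4. It was also -0.31 (adjusted p = 0.14) without the bright-spike arrays. Of 22 integrin and adhesion genes 4 rose (18.2%, beside 17.4% of all genes) and 9 fell (40.9%, beside 30.6%), with a median of -0.29. Itga4 went from 863, 744, 734 and 971 to 299, 296, 271 and 256 (-1.50 ± 0.11), Pecam1 fell by 1.38 ± 0.17 and Itgb7, the partner chain of Itga4, by 1.06 ± 0.12, and Itgav rose by 1.20 ± 0.11.

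Of 20 genes of TNF receptors and TRAF adaptors 5 rose and 8 fell (median -0.16). Traf1 rose by 0.85 ± 0.13, and Tnfrsf13b, which encodes TACI (-1.11 ± 0.11), Cd40 (-0.86 ± 0.12) and Tnfrsf13c, the BAFF receptor (-0.41 ± 0.12), fell, the last without passing the test with the code row as a block. Of 26 cytokine receptor genes 6 rose and 10 fell (median -0.08). Il27ra fell by 0.93 ± 0.11 beside Il10ra, and Il1r2, a decoy receptor for interleukin 1, was called higher, with 7.98 to 18.8 with PBS and 33.4 to 45.4 with anti-IgD. Its mean PBS signal was under the filter signal of 15.2, and its fold is left out because it depends on the offset. Il4ra had -0.37 ± 0.12 (limma adjusted p = 0.012), a call lost with the code row as a block, without the bright-spike arrays and without replicate 4 of the PBS group (-0.27, adjusted p = 0.059). Among 19 cytokine genes 2 rose and 5 fell (median 0.02): Vegfa was called higher, with 0.546 to 7.64 with PBS and 23.3 to 36.7 with anti-IgD, Il16 fell from 1216, 1151, 1487 and 1195 to 302, 397, 418 and 314 (-1.78 ± 0.11) and Ltb, lymphotoxin beta, fell by 1.13 ± 0.16. The PBS signals of Vegfa lay under the filter signal of 15.2, so it passed only through the anti-IgD arrays and no fold is given; 16 of the 21 alternatives tested it. In the JAK-STAT list 7 of 24 rose and 8 fell (median -0.19), with the survival kinase Pim3 at 1.84 ± 0.08, Stat2 at -1.29 ± 0.16 and Jak2 at -0.80 ± 0.08.

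Interferon-stimulated genes fell far more often than they rose, at 57.8% and 0%, beside 30.6% and 17.4% of all genes. Toll-like receptor and adaptor genes lay nearer to all genes, with 41.7% lower and 12.5% higher. After the shift to one median, and after quantile normalization, 33.3% of the latter fell. Of 45 interferon-stimulated genes 26 fell and 0 rose (median -0.46; limma, and 0 rose at an unadjusted p under 0.05 as well). Over the 21 alternative settings between 20 and 28 of them fell, and at most 1 rose. Gbp3, an interferon-induced GTPase, had 556, 474, 501 and 568 with PBS and 156, 179, 156 and 139 with anti-IgD (-1.64 ± 0.09). Gbp2 fell by 1.26 ± 0.15 and Trim25, a ubiquitin ligase of RNA sensing, by 1.12 ± 0.10. Of 24 genes of Toll-like receptors and adaptors 3 rose and 10 fell (median -0.30), with Tlr3 at -1.29 ± 0.17, Tlr1 at -1.07 ± 0.10 and Tlr4 at -1.03 ± 0.13, and Tlr7, a receptor for single-stranded RNA, at 0.54 ± 0.09. The fold of Tlr3 depended on the offset and lay between -2.05 and -0.63 over the alternatives. All 8 GIMAP GTPase genes tested fell (median -0.88), a family known for lymphocyte survival, with Gimap7 from 638 to 846 down to 201 to 293 (-1.62 ± 0.11) and Gimap3 at -1.24 ± 0.14.

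Genes on the antigen presentation lists that passed the test were mostly lower in both classes. The class II list also holds a ligase that removes MHC class II. Of 19 MHC class II genes 12 fell and 1 rose (median -0.39), and 7 fell without the bright-spike arrays or without replicate 4 of the PBS group and 6 with the code row as a block. Marchf1, the ligase that removes MHC class II and CD86 from the surface, went from 1126, 1075, 884 and 1054 to 309, 366, 345 and 310 (-1.59 ± 0.09). Ifi30, the thiol reductase of antigen breakdown, fell by 0.84 ± 0.11, and Ciita, the class II activator, had -0.47 ± 0.12, a call lost without the bright-spike arrays and with the code row as a block. Of 15 MHC class I genes 8 fell and 1 rose (median -0.37; 5 fell with the code row as a block), and the 1 was Erap1, which trims peptides in the endoplasmic reticulum (0.65 ± 0.10).

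Of 14 BCL2 family genes 2 rose and 6 fell (median -0.22), and 5 rose without the bright-spike arrays. Bcl2 fell by 1.05 ± 0.15 and Bcl2l1, which encodes BCL-XL, rose by 0.58 ± 0.15. Mcl1 (-0.25 ± 0.14) and Bcl2l11, which encodes BIM (0.27 ± 0.14), did not pass the test. Mcl1 lay between -0.51 and -0.03 over the alternatives. It passed with the mean of all probe sets (-0.51, limma adjusted p = 0.00029) and after quantile normalization (-0.21, limma adjusted p = 0.039). Bcl2l11 lay between 0.16 and 0.38 over the alternatives and passed under 3 of them. It was 0.38 (limma adjusted p = 0.039) without replicate 2 of the anti-IgD group and 0.17 (limma adjusted p = 0.37) without replicate 4.

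Transcription factors of B-cell identity fell in 18 of 35 cases and rose in 7 (median -0.42). Tcf3, the E protein E2A, had 664, 574, 652 and 845 with PBS and 262, 245, 245 and 223 with anti-IgD (-1.42 ± 0.10), and its inhibitor Id3 fell as well (-1.19 ± 0.12). Ets1 fell by 1.15 ± 0.14, Foxo1 by 0.82 ± 0.11, Pax5 by 0.73 ± 0.13 and Bcl6 by 0.57 ± 0.16. Bach2 had -0.17 ± 0.10 and did not pass, but it passed under 3 alternatives. It was -0.34 (limma adjusted p = 0.0015) with the mean of all probe sets and -0.23 (limma adjusted p = 0.045) after quantile normalization. With the spike-in signal as a covariate it was -0.22 (limma adjusted p = 0.049). Irf4 rose by 2.14 ± 0.12 and Myb by 1.56 ± 0.19.

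Genes of the signalling path from the receptor fell near the membrane. Of 37 genes of the receptor complex and proximal signalling 24 fell and 4 rose (median -0.50). The RAS activator Rasgrp1 had 698, 647, 699 and 637 with PBS and 238, 228, 247 and 228 with anti-IgD (-1.45 ± 0.09). Its relatives Rasgrp2 (-1.37 ± 0.10) and Rasgrp3 (-1.15 ± 0.11) fell, and the SRC-family kinase Fyn rose (2.00 ± 0.14). Of 29 inhibitory receptors and phosphatases 14 fell and 4 rose (median -0.41). Siglecg, which damps calcium signals in B cells, went from 1372, 1192, 1714 and 2542 to 494, 475, 447 and 452 (-1.77 ± 0.17). Ceacam1 fell by 1.65 ± 0.12 and Cd200 by 1.48 ± 0.12, and Cd5 (0.90 ± 0.23) and Cd72 (0.76 ± 0.09) rose. Cd5 was weak, with mean signals of 18.4 with PBS and 45.7 with anti-IgD. Its fold depended on the offset and lay between 0.42 and 1.52 over the alternatives that tested it.

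Of 28 RAS and RAP regulators 12 fell and 4 rose (median -0.24), with Rasa3, a GTPase-activating protein, at -1.81 ± 0.10 and the exchange factor Rasgef1b at 1.58 ± 0.13. Of 37 G proteins and their regulators 5 rose and 14 fell (median -0.15): Rgs1 (2.21 ± 0.15), Rgs2 (1.66 ± 0.13) and Rgs13 (1.55 ± 0.20), which shorten G-protein signals, rose and Rgs14 fell (-1.39 ± 0.10).

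Of 45 cAMP genes 22 fell and 4 rose (median -0.27), with Crem, a cAMP-responsive repressor and activator, from 77.0, 82.7, 56.3 and 56.8 to 253, 330, 366 and 336 (2.00 ± 0.12) and Crebl2 at -1.36 ± 0.11, beside the fall of Pde4b. Of 32 calcium and NFAT genes 15 fell and 6 rose (median -0.23). Orai1, the pore of store-operated calcium entry, had 188, 164, 216 and 210 with PBS and 483, 545, 553 and 594 with anti-IgD (1.41 ± 0.10), and Orai2 fell by 0.73 ± 0.11. Nfatc1 rose by 0.77 ± 0.11 and Nfatc2 fell by 0.67 ± 0.15. Of 52 genes of phosphoinositide and diacylglycerol metabolism 22 fell and 5 rose (median -0.28): Dgka, which removes diacylglycerol, went from 607 to 710 with PBS to 185 to 226 with anti-IgD (-1.58 ± 0.09) and Dgkh, of the same family, from 9.46 to 27.6 to 76.9 to 108 (1.57 ± 0.17). The fold of Dgkh depended on the offset and on the choice of probe set, and lay between 0.89 and 2.17 over the alternatives. Of 47 MAP kinase genes 22 fell and 8 rose (median -0.23), with Mapk6 (1.69 ± 0.15) and Mapkapk3 (1.66 ± 0.14) against Mapk14, the p38 alpha kinase (-1.47 ± 0.10).

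Nutrient sensing genes were divided, with 7 of 36 higher and 13 lower (median -0.22). The RAG GTPase Rragd (1.44 ± 0.13) and the folliculin complex genes Fnip1 (1.26 ± 0.18) and Flcn (1.21 ± 0.11), which act on mTORC1 at the lysosome, rose. Foxo4 fell from 68.9 to 78.7 with PBS to 13.9 to 20.3 with anti-IgD (-1.47 ± 0.15) and Foxo3 by 1.07 ± 0.19. The size for Foxo4 depended on the offset and lay between -2.11 and -0.78 over the alternatives. In the TGF-beta list 5 of 20 rose and 5 fell (median 0.03), with large rises of the corepressors Tgif1 (1.93 ± 0.11) and Tgif2 (1.73 ± 0.11) and of Smad3 (1.74 ± 0.10). Tgfb3 rose by 1.76 ± 0.16, a size that depended on the offset and lay between 0.96 and 2.51 over the alternatives. Smad3 stood at 208, 228, 170 and 209 with PBS and at 806, 630, 641 and 799 with anti-IgD, and Smad7, the inhibitory member, fell by 0.69 ± 0.13. In the Notch list 13 of 24 fell and 1 rose (median -0.29; 8 fell after the shift to one median and with the code row as a block), with Notch2, the receptor of marginal zone fate, at -1.13 ± 0.18 and Adam10, a protease that cuts Notch and CD23, at 1.03 ± 0.13.

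**Figure D4:**
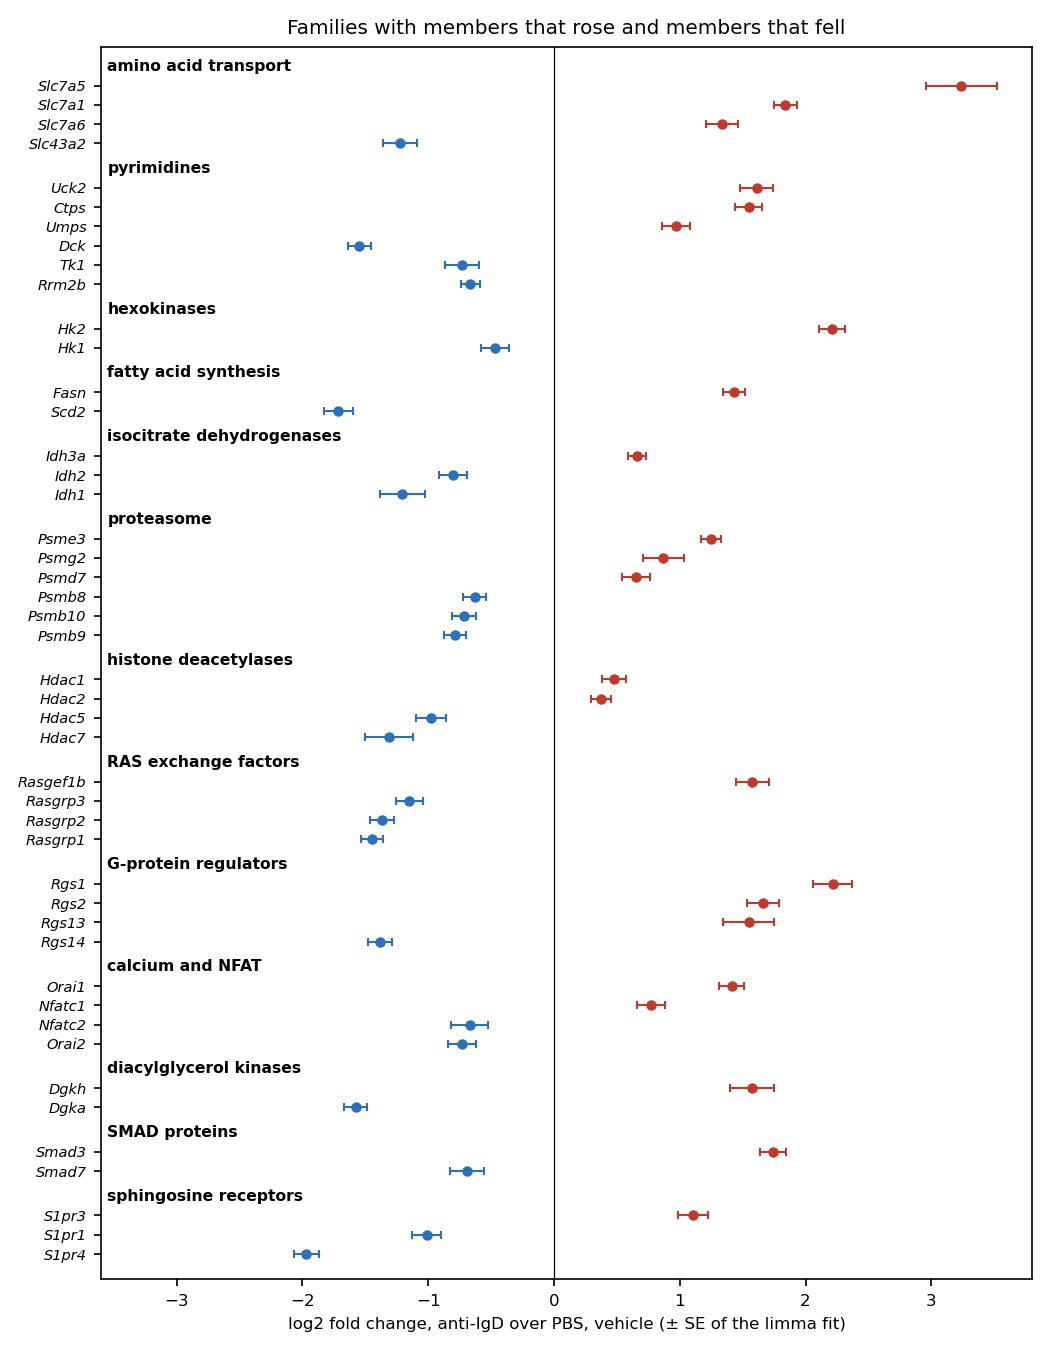
Log2 fold change ± SE (horizontal) of single members of 13 gene groups in which some members rose (red) and others fell (blue), n = 4 arrays per treatment. Within the sphingosine-1-phosphate receptors, for example, S1pr3 lies at 1.10 and S1pr4 at -1.97, and within the diacylglycerol kinases Dgkh lies at 1.57 and Dgka at -1.58. Dgkh was weak with PBS, and its fold lay between 0.89 and 2.17 over the alternatives.

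Genes of the lysosome, of autophagy and of vesicle transport went both ways. Of 41 lysosome genes 9 rose and 17 fell (median 0.01): subunits of the proton pump rose, Atp6v1h by 0.98 ± 0.10 and Atp6v0d1 by 0.91 ± 0.13, and the sphingomyelinase Smpd1 (-1.09 ± 0.13) and the membrane protein Scarb2 (-0.98 ± 0.10) fell. Tfeb, the transcription factor of lysosome genes, fell from 123 to 178 with PBS to 47.3 to 84.6 with anti-IgD (-0.98 ± 0.14). Of 40 autophagy genes 15 fell (37.5%, beside 30.6% of all genes) and 2 rose (5%, beside 17.4%), with a median of -0.18. Wipi2 was at -0.98 ± 0.11 and Atg13 at -0.95 ± 0.11. Of 49 RAB GTPases 7 rose (14.3%) and 18 fell (36.7%), near the shares of all genes, with a median of -0.14. Rab20, whose mean PBS signal was under the filter, was called higher, with 5.42 to 19.3 with PBS and 19.6 to 64.2 with anti-IgD. With the code row as a block 4 RAB genes rose and 11 fell.

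TRIM ubiquitin ligases fell in 21 of 33 cases and rose in 4 (median -0.42), with 25 of the 58 on the array under the signal filter. Trim34a went from 1577, 1955, 1603 and 1985 to 516, 550, 466 and 533 (-1.75 ± 0.12), and Trim35 fell by 1.64 ± 0.10. BTB-Kelch proteins, adaptors of cullin ligases, fell in 16 of 30 cases and rose in 1 (median -0.44): Kbtbd11 fell by 1.98 ± 0.11 and Klhl14, linked to the turnover of B-cell receptor subunits, by 1.29 ± 0.12, and Kbtbd8 rose by 0.98 ± 0.13. Of 52 ubiquitin-specific proteases and related enzymes, Tnfaip3 among them, 16 rose and 14 fell. Their median of -0.004 turned to 0.06 after the shift to one median, with Usp31 at 1.37 ± 0.12 and Usp3 at -0.61 ± 0.08. Of 39 mRNA decay genes 8 rose and 12 fell (median -0.07), and Zc3h12c, a relative of the RNase regnase-1, rose by 1.83 ± 0.15.

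Of 23 genes of oxidative stress and glutathione 4 rose and 8 fell (median -0.18). Txnip, which restrains thioredoxin and glucose uptake, fell from 2079, 1340, 2691 and 2511 to 840, 748, 746 and 645 (-1.47 ± 0.16), catalase, Cat, by 1.18 ± 0.17 and Gpx4, which removes lipid peroxides, by 1.07 ± 0.18, and Gclc, of glutathione synthesis, rose by 0.79 ± 0.09. Of 52 glycan transferases 7 rose (13.5%) and 20 fell (38.5%), near the shares of all genes, with a median of -0.27. Among them St6galnac4 (1.57 ± 0.11) and B4galt5 (1.17 ± 0.11) rose, and Cmah, which makes the glycolyl form of sialic acid (-1.34 ± 0.11), and Mgat1 (-1.19 ± 0.12) fell.

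Markers of cell type were read to check the labelled cells. The B-cell markers were bright in both groups, and 4 of 7 fell and 0 rose by limma, 0 also at an unadjusted p under 0.05 (median -0.73, and -0.41 without the bright-spike arrays, where 4 fell and 1 rose). With the code row as a block 2 of the B-cell markers fell and 0 rose (median -0.63). Their summed signal was 21883 to 44083 with PBS and 16112 to 19820 with anti-IgD. Cd79a, a signal chain of the receptor, had 1661, 1321, 1955 and 5721 with PBS and 1135, 1157, 1029 and 1145 with anti-IgD (-0.99 ± 0.34; limma adjusted p = 0.021), a call lost without replicate 4 of the PBS group (-0.54, adjusted p = 0.11), with the code row as a block (-0.88, adjusted p = 0.2) and with the spike-in signal as a covariate (-0.61, adjusted p = 0.061). Without the bright-spike arrays it was -0.4. Cd79b had -1.09 ± 0.23 and was called except with the code row as a block, and Cd22 fell by 0.80 ± 0.16. Ighm had -0.54 ± 0.26 and did not pass; it ranged from -0.7 (adjusted p = 0.039) without replicate 1 of the PBS group and -0.68 (adjusted p = 0.046) without replicate 2 to -0.34 (adjusted p = 0.31) without replicate 4, and it was -0.07 (adjusted p = 0.68) without the bright-spike arrays and -0.15 (adjusted p = 0.065) after quantile normalization. Fcer2a, which encodes the CD23 by which the cells are named, fell from 2260, 2429, 2381 and 2979 to 1715, 1543, 1716 and 2042 (-0.51 ± 0.10). Mzb1, a marker of marginal zone, B1 and plasma cells, fell by 1.23 ± 0.12. Of 9 marginal zone and B1 markers 2 rose, S1pr3 and Cd5, and 5 fell, and of 6 plasma cell markers tested 2 rose, Irf4 among them, and 2 fell. Ighd was not analysed here.

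Markers of other cells were low or did not move as sets. Of 12 T-cell genes on the array 1 rose, Cd5, which B cells can also carry; 4 others, Cd3e, Cd4, Cd8b1 and Themis, were under the filter signal of 15.2 on all 8 arrays, and the summed signal was 103 to 243 with PBS and 155 to 210 with anti-IgD. Of 13 macrophage and monocyte genes 1 rose, Cd14 (1.52 ± 0.55; limma adjusted p = 0.027), with signals of 79.6, 170, 45.6 and 21.5 with PBS and 272, 336, 462 and 41.6 with anti-IgD that overlap. Its call was lost without replicate 3 (1.40) or 4 (1.16) of the PBS group and without replicate 1 (1.41), 2 (1.32) or 4 (1.17) of the anti-IgD group. The call was also lost with the spike-in covariate (1.41), without the bright-spike arrays (0.79) and with the code row as a block (0.25). Without the bright-spike arrays 0 of the 13 rose and 3 fell, and with the code row as a block 0 were called (limma). The macrophage markers were not all weak. Lyz2, the brightest of the 13, had mean signals of 1135 with PBS and 1594 with anti-IgD. The summed macrophage signal was 2173 to 3087 with PBS and 1402 to 3944 with anti-IgD, and its part in any result was not tested. Of 6 natural killer (NK) cell genes tested 1 fell and 0 rose, and of 4 stromal and endothelial genes 1 fell and 0 rose (limma). The neutrophil, dendritic cell, erythroid, platelet and mast cell lists were grouped because they held no call. Of their 22 genes tested 0 had an unadjusted p under 0.05 by limma. In other fits they did hold calls: 1 neutrophil gene rose with the code row as a block, and 1 mast cell gene fell without the bright-spike arrays.

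For 5408 genes more than 1 probe set passed the filter, and in 35 of them probe sets were called in opposite directions. None of the genes named here with more than 1 such probe set, 175 in all, was among the 35.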

How the data were processed

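RNA of 18 samples was read on Affymetrix Mouse Genome 430 2.0 arrays from 150 ng of total RNA each, copied from transcript 3' ends, per the labels' protocols. The deposited values are signal intensities that the authors made with MAS5, per the submitters' processing notes, and no version or setting is given in the sources used here. The 18 arrays had a 2%-trimmed mean of 99.96 to 99.97, so each had been scaled to one level, and differences in the amount of RNA per cell are not in these values. Of 45101 probe sets 64 were controls, 34945 had 1 gene symbol, 932 several and 9160 none, and the named ones covered 18193 genes. Names were updated through RefSeq (GRCm38.p6), with 204 probe sets unmatched.

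Signals were taken as log2(signal + 16), which makes the fold changes of weak genes smaller. Probe sets with a signal above 15.2 (the overall median) in 4 or more of the 18 arrays were kept (20836), so that a gene bright in only 1 group could pass, and the probe set with the highest mean stood for a gene. All 18 arrays were fitted in limma 3.58.1 (R 4.3.3) with 1 mean per group and eBayes with a trend, and two-sided p-values were adjusted by Benjamini-Hochberg over 11104 genes. The number of arrays limits precision, and the median SE was 0.129. The fit was tested on simulated data with known changes.

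The comparison follows the labels. The members, the 79 gene lists, the marker lists and the named genes were chosen with earlier results of these data known, and lists are described by counts and medians with no test of the list. Genes were named as the 15 largest changes each way among genes called with no overlap between groups, outside the immediate early and ribosome biogenesis lists, up to 4 called members of a list in its main direction and 3 in the other, and 36 genes picked for their role. In addition, 9 genes were named after their values were seen: Atf4, Cd14, Cd79a, Cd79b, Dctd, Flcn, Mzb1, Nfatc2 and Pfkp. Levels were not compared between genes, and some genes and 1 gene list are not reported here. The 21 alternatives tried cover the offset, the filter, the choice of probe set, the scaling, the arrays and terms in the fit, and leaving out each array.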

Additional observations from a re-analysis of the deposited data

Results flagged for a closer look

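In 24 of 584 sets of 4 signals, 1 per group and named gene, 1 array stood apart from the other 3 by a gap whose share of the whole range was above Dixon's 95% critical value (4.11%), and chance alone marks about 1 in 20. Such arrays bear on the spread of the gene concerned.

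Replicate 4 of the PBS group was the highest array for 8 genes: Srsf2 (2066, the others 1511 to 1583), Stat2 (138, the others 87.7 to 96.3), Gimap3 (1041, the others 671 to 679), Bcl2l11 (677, the others 515 to 542), Ets1 (5801, the others 3696 to 3896), Kbtbd8 (139, the others 110 to 112), Cd79a (5721, the others 1321 to 1955) and Tnfaip3 (301, the others 264 to 270). It was the lowest for Hivep3 (138, the others 247 to 259), Idh1 (60.8, the others 126 to 135) and Ikbkg (212, the others 240 to 241). This array had the brightest spike-in controls of the 8, at 3.70 times the median, and the part of that in these values was not tested. Without it Cd79a had a log2 fold change of -0.54 and Ets1 one of -1.0, against -0.99 and -1.15 with it, and Cd79a then missed the threshold (limma adjusted p = 0.11). Replicate 3 of the PBS group was the highest for Rasa3 (1615, the others 1273 to 1291) and Mrpl17 (659, the others 379 to 418) and the lowest for Slc3a2 (291, the others 334 to 341) and Hspa9 (521, the others 588 to 591). Replicate 2 of that group was the highest for Idh2 (107, the others 88.9 to 89.7) and Pim3 (267, the others 214 to 223). In the anti-IgD group, replicate 2 was the highest for Eci2 (118, the others 95.1 to 96.2) and S1pr1 (344, the others 245 to 261) and the lowest for Rpl12 (778, the others 922 to 941) and Nup133 (470, the others 590 to 595), and replicate 4 was the highest for Pold1 (520, the others 342 to 370) and Tnip1 (270, the others 222 to 230) and the lowest for Marcksl1 (2570, the others 3312 to 3356).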

How the results depend on the processing

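Most results kept their direction and call under the 21 alternatives. With an offset of 1, 757 genes fell at least 2-fold, and with an offset of 64, 252 rose and 189 fell at least 2-fold, against 393 and 402, because a larger offset shrinks the fold changes of weak signals. The other counts stayed within 1.5 times. Leaving out 1 array at a time, 1748 to 1899 genes rose and 3093 to 3283 fell, and 376 to 404 rose and 381 to 449 fell at least 2-fold. With the replicate number as a replicate block 1892 rose and 3303 fell, of which 1814 and 3156 were also called without it. The numbers do not pair the samples, since deviations of same-numbered arrays correlated at -0.051, 0.017 and -0.137. Of 283 named genes called, 274 were called the same way under every alternative that tested them, 9 lost the call under at least 1 and 0 reversed, and of 9 not called, 6 were called under at least 1. The log2 fold change of 64 of the called ones moved by more than 1.5 times under at least 1 alternative, in 33 with an offset of 64 and in 29 with the mean of all probe sets, where Hivep3 was 1.41, Dnajc21 0.47 and Usp31 0.65. Falls also shrank with that mean: Rabgap1l was -1.11, Il10ra -1.09, Kbtbd11 -1.05, Scd2 -1.04, Hadh -0.89 and Mapk14 -0.8. Of leaving out single arrays, only that of replicate 4 of the PBS group moved any so far, Cd79a and Ciita (-0.31). Of 3318 list counts under alternatives 3154 lay within 1.5 times of the reported one, 128 were lower and 36 higher. The median changed sign with the scaling for cytosolic ribosomal proteins, ATP synthase, the pentose phosphate pathway, the citrate cycle, cholesterol synthesis and ubiquitin-specific proteases.

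Limits are that 4 arrays stood for each group, that only 2 h after the antibody was sampled, and that scaled signals show shares of RNA and not amounts per cell. The code row and the spike-in signal differ between arrays in ways that the labels do not explain. Of the rows only C held arrays of both vehicle groups, 1 of each, so that the fit with the code row as a block rests also on the arrays of PF-303-treated mice.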

Other observations

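Genes outside the pathways above also divided by member. Of 17 dual-specificity phosphatases, which switch off MAP kinases, 5 rose and 5 fell (median -0.10). Dusp2 rose by 1.69 ± 0.09, Dusp3 by 1.40 ± 0.11 and Dusp5 by 0.77 ± 0.16, whereas Dusp19 (-0.88 ± 0.15), Dusp7 (-0.79 ± 0.12) and Dusp6 (-0.60 ± 0.10) fell. Without the bright-spike arrays 3 of the list fell. Of 20 NF-kB and IkB genes 8 rose and 7 fell (median 0.08): Nfkbiz, a nuclear IkB protein, rose by 1.63 ± 0.13 and Tnfaip3, the ubiquitin-editing brake A20, by 1.15 ± 0.12, and the A20 partner Tnip1 (-0.64 ± 0.10) and the kinase scaffold Ikbkg (-0.61 ± 0.10, and -0.21 with the mean of all probe sets) fell. In that list 4 fell without the bright-spike arrays.

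Of 49 kinesin, dynein and tubulin genes 15 fell and 1 rose (median -0.25), with the dynein light chains Dynlt1f (-0.86 ± 0.14) and Dynlrb1 (-0.79 ± 0.10) and the kinesin light chain Klc4 (-0.74 ± 0.12) lower. With the mean of all probe sets Klc4 was -0.24 and missed the threshold (limma adjusted p = 0.14). In the pentose phosphate pathway 1 of 7 rose and 3 fell, Taldo1 among them (-0.47 ± 0.09), and the median of -0.04 turned to 0.03 after the shift to one median.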
